A study of Homo sapiens with 8 samples.

Results

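The genes described are 10 imprinted genes of human, PEG3, PEG10, MEST, H19, IGF2, MEG3, DLK1, NNAT, GRB10 and PLAGL1, of 27936 genes with an identifier in the deposited tables. They were found by symbol and Entrez gene ID, and all 10 had a row. The libraries came from HEK293, an immortalised human embryonic kidney line, and comprised 4 labelled TIP60 KO and 4 labelled control. TIP60, encoded by KAT5, is a lysine acetyltransferase that acts on histones and other chromatin proteins. Each arm held 2 libraries of sgRNA1 and 2 of sgRNA2, where an sgRNA is the single guide RNA that directs a nuclease to its target. The KO libraries had the genotype label HEKg1/C9 and the control libraries HEKg1, with the added component left unexplained, and all 8 cultures were given doxycycline at 1 µg/ml for 3 days to switch on the guides. The targets of the control guides, whether the lines were clones and whether replicates were separate cultures were not stated, so the p-values measure only the spread between these libraries. The question of the comparison was which genes differ in expression between KO and control cells.

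Imprinted genes are expressed mainly from the copy inherited from 1 parent, a state laid down by DNA methylation in the germ line and kept in the embryo by maintenance methylation and by zinc finger proteins that bind methylated imprinting control regions. Many of them act on growth of the fetus and placenta. PEG3, PEG10, MEST, IGF2, DLK1, NNAT and PLAGL1 are known as paternally expressed genes, and H19 and MEG3 as maternally expressed non-coding RNAs, while the parental copy of GRB10 in use differs between tissues. The counts hold no allele, so parental origin was not measured here.

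Gene counts per library summed to 13325415 to 18841774 in KO and 3723992 to 14601552 in control libraries, and the shallowest, control sgRNA1 replicate 2, had 29.8% of the total of the next one. KAT5 itself was lower in KO (log2 fold change -1.32 ± 0.06, SE, adjusted p = 6.72e-13). Its transcript remained at 18.0 to 20.2 CPM (counts divided by the scaled library total) in KO libraries against 44.5 to 49.0 CPM in control libraries. The listed HEK293 markers, all 7 with a count, ranged from PAX2, with a mean of 0.901 CPM in KO and 0.706 CPM in control libraries, to the neurofilament gene NEFM, with 12400 CPM in KO and 8379 CPM in control libraries. Summed over their lists, markers of other cell types were higher in KO for endothelium (2.78 to 3.80 CPM against 0 to 0.404 in control), leukocytes and erythroid cells (1.92 to 3.34 against 0.565 to 1.08), trophoblast (0.529 to 1.34 against 0 to 0.207) and hepatocytes (0.234 to 0.594 against 0 to 0.069). These sums do not stand for each gene of a list, and a single gene made up most of the endothelial sum in KO. In the leukocyte and erythroid list, only CD14 had every KO library above every control library (0.891 to 1.72 against 0.484 to 0.759 CPM). There, PTPRC averaged 0.111 CPM in KO and 0.135 CPM in control libraries and LYZ 0.1275 and 0.0984 CPM, with overlapping arms. Fibroblast markers overlapped (26.7 to 30.8 CPM in KO, 20.9 to 32.0 in control), as did those of differentiated kidney (0.331 to 0.817 and 0.069 to 0.538). The top of that kidney range in control came from the shallowest library, where 1 count of a gene is 0.269 CPM. The most abundant gene of the kidney list averaged higher in KO, with overlapping arms. The kidney marker UMOD and the hepatocyte marker SERPINA1 had no count in any library. Their part in the results below was not tested.

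PEG10, PLAGL1 and PEG3 were higher in KO than in control cells, while GRB10 did not pass the test and the other 6 genes were close to or at the limit of detection. Only these 4 of 10 genes passed the filter on low counts and entered the fit across all 14455 genes tested (edgeR quasi-likelihood, Benjamini-Hochberg adjustment, adjusted p under 0.05 called). Of the 4, 3 were called higher and 0 lower, in a comparison that called 63.0% of all genes tested, 31.8% higher and 31.2% lower. In each of these 3 genes, every KO library lay above every control library, as was the case for 27.3% of genes tested. The median log2 fold change of the 4 was 0.66, against 0.0069 over all genes tested. The 10 genes were chosen with earlier results of these data known, so this median is no support for a rise of imprinted genes as a group.

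**Figure D1:**
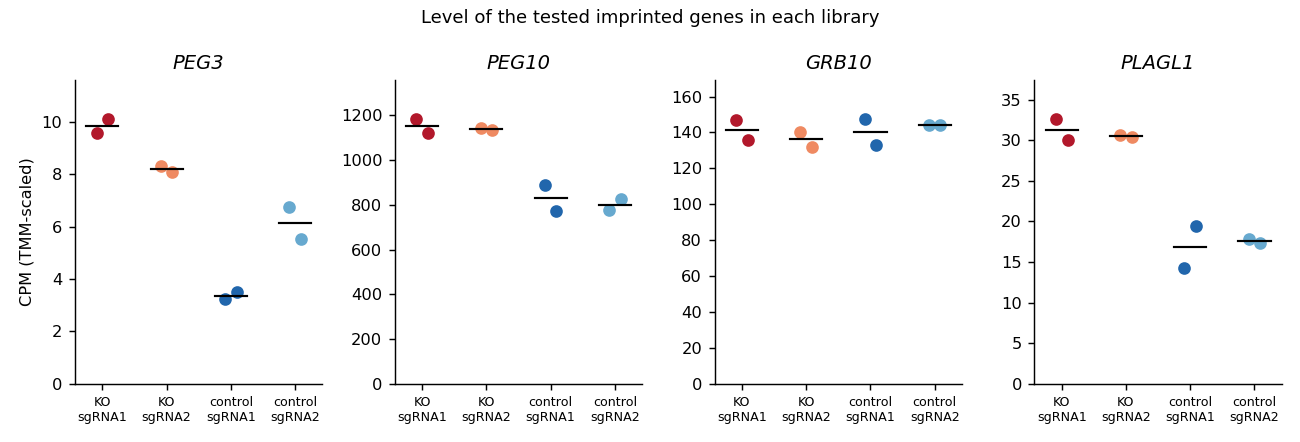
Level in CPM (y axis, from 0, a scale of its own for each gene) of the 4 imprinted genes that passed the filter, with 1 point per library and a line at the mean of the 2 libraries of each group (x axis). KO libraries lie above all control libraries for PEG3, PEG10 and PLAGL1 and overlap them for GRB10, and the 2 control groups of PEG3 lie apart, at means of 3.37 CPM with sgRNA1 and 6.15 CPM with sgRNA2.

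PEG10 is a gene derived from a retrotransposon, needed for placental development in mouse, whose mRNA is read in 2 frames through a programmed shift of the ribosome. It was by far the most abundant of the 10 per length of transcript and held 86.4% of their summed counts in KO and 83.2% in control libraries. The gene lies on chromosome 7, 94656325 to 94669695 (GRCh38, RefSeq). The shift site is shown because it is the element that sets the gene apart, with the slippery heptamer in capitals, at chr7:94664480-94664534 on the plus strand (GRCh38, GENCODE v29 transcript). The stretch ends at the stop codon of the first frame, which opens 325 codons before it, and the reading frame shifted back by 1 base runs on for 390 codons from the heptamer.
PEG10 shift site: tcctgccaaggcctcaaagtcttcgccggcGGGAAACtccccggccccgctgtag

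PEG10 was measured at 1182 and 1119 CPM in KO sgRNA1 and 1142 and 1135 CPM in KO sgRNA2, against 886.8 and 771.0 CPM in control sgRNA1 and 774.9 and 826.5 CPM in control sgRNA2. The lowest KO library thus stood above the highest control library, and the libraries of an arm differed little by guide. The log2 fold change was 0.49 ± 0.05 (SE, edgeR adjusted p = 5.78e-08), a 1.40-fold difference (exact permutation p = 0.0286, n = 4 per arm, two-sided, and no split of these libraries can give less). It was 0.47 ± 0.08 with sgRNA1 (adjusted p = 6.46e-05) and 0.51 ± 0.08 with sgRNA2 (adjusted p = 2.17e-05), where 47.6% and 51.2% of all genes tested were called, with 24.3% and 25.7% of genes called higher. The difference between the guides was -0.04 ± 0.11 (approximate 95% interval -0.25 to 0.17). PEG10 averaged 1144 ± 26.9 CPM in KO and 814.8 ± 54.2 CPM in control libraries (SD, n = 4).

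PLAGL1, a zinc finger transcription factor that restrains proliferation and regulates other imprinted genes in mouse, was higher in KO with both guides. The gene lies on chromosome 6, 143940300 to 144064599, on the minus strand. It has several transcript starts, and 2 of them lie in windows rich in CpG, the dinucleotide that carries DNA methylation. The downstream of these windows spans the start of HYMAI, a non-coding RNA on the same strand, and is the region known as the methylated control region of this locus, whereas the upstream start is known to be read from both copies in blood. Both windows (RefSeq, GRCh38.p14, 250 bases before to 50 after the start) are printed with each CpG in capitals because a PLAGL1 count cannot tell which of the starts was used.
PLAGL1 upstream start, chr6:144064550-144064849, minus strand: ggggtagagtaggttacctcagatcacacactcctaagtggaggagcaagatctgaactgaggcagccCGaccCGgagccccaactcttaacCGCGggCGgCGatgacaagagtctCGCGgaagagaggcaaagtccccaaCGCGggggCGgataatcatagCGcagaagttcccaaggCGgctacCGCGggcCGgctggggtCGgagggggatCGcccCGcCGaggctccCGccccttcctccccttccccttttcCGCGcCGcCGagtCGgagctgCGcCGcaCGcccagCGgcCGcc
PLAGL1 start beside HYMAI, chr6:144008210-144008509, minus strand: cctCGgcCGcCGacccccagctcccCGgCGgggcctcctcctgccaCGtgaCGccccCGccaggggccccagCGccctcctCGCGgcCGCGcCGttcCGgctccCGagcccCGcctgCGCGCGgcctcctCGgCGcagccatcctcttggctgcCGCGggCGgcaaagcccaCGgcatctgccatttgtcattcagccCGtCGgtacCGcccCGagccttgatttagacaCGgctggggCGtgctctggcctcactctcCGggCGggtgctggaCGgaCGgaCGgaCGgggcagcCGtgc

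The upstream window held 31 CpG and the one beside HYMAI 39, and of 35116 such windows of all genes, 20.7% and 8.71% held at least as many. The 2 starts lie 56340 bases apart. CpG was counted by its letters, CG, which read the same on both strands, and the count says nothing of methylation in these cells.

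PLAGL1 had 32.6 and 30.1 CPM in KO sgRNA1 and 30.7 and 30.4 CPM in KO sgRNA2, against 14.2 and 19.4 CPM in control sgRNA1 and 17.8 and 17.3 CPM in control sgRNA2. The lowest KO library, at 30.1 CPM, stood well above the highest control library, at 19.4 CPM, which was the shallowest. The log2 fold change was 0.88 ± 0.08 (SE, edgeR adjusted p = 6.62e-09), a 1.84-fold difference (exact permutation p = 0.0286, n = 4 per arm). It was 1.00 ± 0.12 with sgRNA1 (adjusted p = 2.95e-06) and 0.80 ± 0.10 with sgRNA2 (adjusted p = 5.27e-06), and these differed by 0.21 ± 0.16 (approximate 95% interval -0.11 to 0.53, edgeR adjusted p = 1.00). HYMAI, which shares 3.31% of the exonic bases of PLAGL1, had 3, 0, 3 and 0 counts in KO and 1, 1, 2 and 3 counts in control libraries, too few for the fit.

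PEG3, a large zinc finger protein of the p53 and TNF pathways with roles in placental growth and maternal behaviour in mouse, was the least abundant of the 4. The gene lies on chromosome 19, 56810082 to 56840726. Its counts were 164 and 136 in KO sgRNA1 and 159 and 122 in KO sgRNA2, against 40 and 13 in control sgRNA1 and 98 and 68 in control sgRNA2. Scaled for depth these were 9.57, 10.1, 8.31 and 8.07 CPM in KO and 3.23, 3.50, 6.76 and 5.53 CPM in control libraries, so the arms did not overlap, but the sgRNA2 control libraries lay closer to KO than the sgRNA1 control libraries. The log2 fold change was 0.84 ± 0.17 (SE, edgeR adjusted p = 0.000222), a 1.79-fold difference (exact permutation p = 0.0286, n = 4 per arm). Leaving out 1 library at a time gave 0.60 to 1.08, called in all 8 fits.

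The change in PEG3 was 1.57 ± 0.20 with sgRNA1 (adjusted p = 5.59e-06) and 0.41 ± 0.15 with sgRNA2 (adjusted p = 0.0353, edgeR). The larger change with sgRNA1 was known from these libraries when the genes were chosen, and its difference, 1.16 ± 0.26 on the log2 scale, had an unadjusted p of 0.000304 and an adjusted p of 0.921. It ranked 4 by p among the 14455 genes, a comparison in which 0 genes (0.00%) were called and 638 had an unadjusted p under 0.05 (by DESeq2 0 and 192). Between the lines of an arm, PEG3 differed by 0.26 ± 0.14 in KO sgRNA1 against KO sgRNA2 (adjusted p = 0.993) and by -0.91 ± 0.22 in control sgRNA1 against control sgRNA2 (unadjusted p = 0.000655, adjusted p = 0.314). PEG3 averaged 9.83 ± 0.368 CPM in KO sgRNA1 and 8.19 ± 0.166 CPM in KO sgRNA2, against 3.37 ± 0.191 CPM in control sgRNA1 and 6.15 ± 0.868 CPM in control sgRNA2 (SD, n = 2), so the wider gap was that between the control lines. Of all genes, 0.00% were called between the KO lines (0 by edgeR, 613 at an unadjusted p under 0.05, 0 and 150 by DESeq2) and 0.0277% between the control lines, with 0.0208% higher and 0.00692% lower.

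The call of PEG3 with sgRNA2 lay near the threshold. It was lost with DESeq2 (log2 fold change 0.42, adjusted p = 0.189), with counts thinned to the smallest library (log2 fold change 0.08, adjusted p = 0.874) and without any 1 of the 4 KO libraries (0.38 to 0.42, edgeR adjusted p = 0.0537 to 0.123) or without control sgRNA2 replicate 2 (0.27, adjusted p = 0.277). Without a filter on low counts, the difference between the guides passed (edgeR adjusted p = 0.0483), as did that between the control lines (adjusted p = 0.0275). Over all genes, that setting called 11 for the guide difference and 86 between the control lines, against 0 and 4 with the filter. PEG3 was also chosen with its guide difference known, so this pass is no independent support. ZIM2, which shares 12.9% of the exonic bases of PEG3 on the same strand, had no count in any library, nor had PEG3-AS1 and MIMT1 of the same domain.

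**Figure D2:**
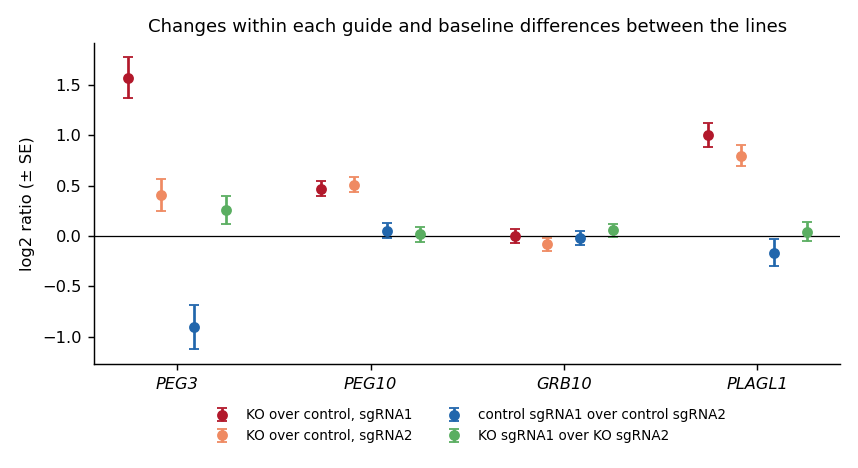
Log2 ratio ± SE (y axis) for the 4 imprinted genes that passed the filter (x axis), for KO over control within each guide and for sgRNA1 over sgRNA2 within each arm. PEG10 and PLAGL1 have ratios of KO over control that are close with both guides, whereas for PEG3 they are 1.57 and 0.41 and the ratio of the control lines is -0.91.

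The genes whose log2 CPM followed PEG3 most closely across the 8 libraries, by Pearson's r, were MFGE8 (0.981), SP100 (0.980), LINC01122 (0.977), SUPT7L (0.976) and LASP1NB (0.975). These 5 were taken as the highest of all genes tested, and the libraries share arm, guide and depth, so the coefficients are a description. As the choice by likeness to PEG3 favours, all 5 had a negative log2 ratio of control sgRNA1 over control sgRNA2, of -0.24 ± 0.08 for MFGE8, -1.0 ± 0.44 for SP100, -4.40 ± 1.96 for LINC01122, -0.14 ± 0.07 for SUPT7L and -1.22 ± 0.79 for LASP1NB.

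GRB10, an adaptor protein that binds the insulin and IGF1 receptors and dampens their signal, did not differ beyond the spread between libraries. The gene lies on chromosome 7, 50590068 to 50793453. It had 147.1, 136.0, 140.5 and 131.7 CPM in KO and 147.3, 133.0, 144.1 and 144.0 CPM in control libraries, and the arms overlapped over most of their range. The log2 fold change was -0.04 ± 0.05 (SE, edgeR adjusted p = 0.435, approximate 95% interval -0.13 to 0.05; exact permutation p = 0.429, n = 4 per arm). With sgRNA1 it was 0.00 ± 0.07 and with sgRNA2 -0.08 ± 0.06, and its sign turned to 0.01 with counts thinned to the smallest library.

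The other 6 genes had at most 28 counts over the KO and 7 over the control libraries together, and their CPM ratios below carry exact 95% intervals that cover counting error only. MEST, a membrane protein of the alpha/beta hydrolase fold (chromosome 7, 130486175 to 130506465), had 7, 4, 14 and 3 counts in KO and 2, 0, 3 and 1 counts in control libraries. Its CPM ratio was 3.09 (1.25 to 9.12), or 2.19 (0.790 to 6.95) without KO sgRNA2 replicate 1, and the arms overlapped, at 0.199 to 0.732 CPM in KO and 0 to 0.207 CPM in control libraries (exact permutation p = 0.0571, n = 4 per arm). Fitted without the filter, the edgeR adjusted p was 0.0541.

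IGF2, the insulin-like growth factor of fetal life (chromosome 11, 2129117 to 2149566), had 8, 7, 6 and 5 counts in KO and 4, 0, 3 and 0 counts in control libraries. The ratio was 2.46 (1.04 to 6.70), and 1 control library lay within the KO range of 0.314 to 0.520 CPM (exact permutation p = 0.0571, n = 4 per arm, adjusted p without the filter 0.167 by edgeR). Leaving out 1 library at a time moved the ratio between 1.75 (0.741 to 4.78), without control sgRNA2 replicate 2, and 4.08 (1.25 to 21.1), without control sgRNA1 replicate 1. Of the exonic bases of IGF2, 20.6% are shared with the readthrough gene INS-IGF2 on the same strand, so its counts are uncertain. H19, the non-coding RNA that shares an enhancer region with IGF2 (chromosome 11, 1995176 to 2001266), had 0, 0, 1 and 1 counts in KO and 0, 0, 0 and 3 counts in control libraries, a ratio of 0.441 (0.0368 to 3.85), and of 0.288 without KO sgRNA2 replicate 2.

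At the DLK1 and MEG3 domain of chromosome 14, the Notch ligand relative DLK1 (100726892 to 100738224) had 0, 1, 3 and 0 counts in KO and 0, 0, 2 and 2 counts in control libraries, a ratio of 0.661 (0.123 to 3.55), and of 0.235 without KO sgRNA2 replicate 1. The non-coding MEG3 (100826108 to 100861026) had 1, 2, 0 and 0 counts in KO and 0, 0, 0 and 2 counts in control libraries, a ratio of 0.992 (0.114 to 11.9), and of 0.417 without KO sgRNA1 replicate 2. NNAT, a small membrane protein of developing neurons (chromosome 20, 37521250 to 37523690), had 0 counts in all libraries, which allows up to 0.0463 CPM in the KO arm and 0.0699 CPM in the control arm when 3 counts per arm are taken as the limit. For H19, DLK1, MEG3 and NNAT no difference was detectable at this depth.

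**Figure D3:**
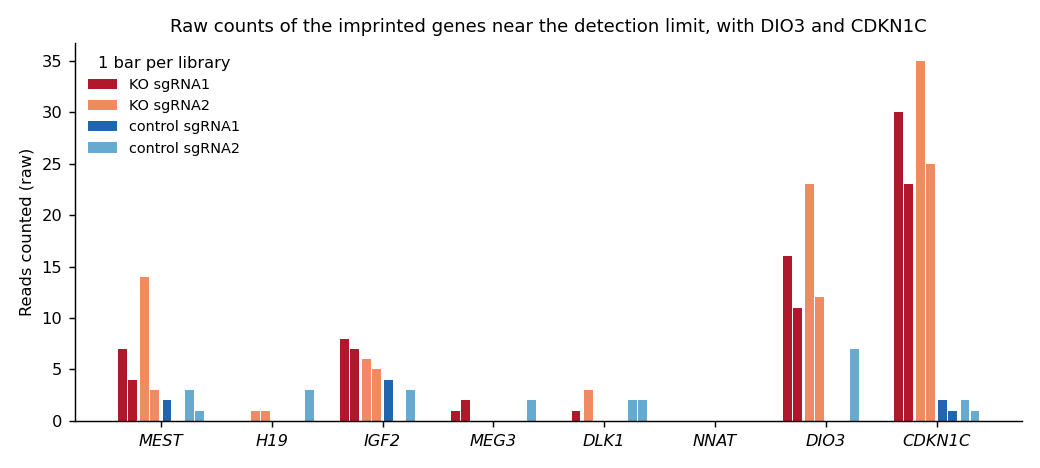
Raw counts (y axis, from 0) of the 6 imprinted genes below the filter and of their domain neighbours DIO3 and CDKN1C, with 1 bar per library. MEST and IGF2 have at most 14 counts in any library, while CDKN1C has 23 to 35 counts in KO and 1 or 2 in control libraries and DIO3 has 7 counts in a single control library.

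Per kilobase of the length given in the tables, mean levels in KO libraries were 172.6 CPM per kb for PEG10, 16.7 for GRB10, 7.48 for PLAGL1 and 0.998 for PEG3. In control libraries the order was the same, with 122.9, 17.1, 4.16 and 0.527 CPM per kb. These 4 were separated from each other in every library of an arm, and PEG3 from the genes below it. MEST (0.136 in KO, 0.0374 in control), IGF2 (0.0635 and 0.0206), DLK1 (0.0363 and 0.0473), H19 (0.0128 and 0.0264) and MEG3 (0.00489 and 0.00385) had ranges over libraries that overlapped their neighbours in the order.

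The list of other genes in the imprinted domains of the 10 held 26 genes, of which 25 were in the tables, 19 had a count and 10 passed the filter. Of these 10, 5 were called higher and 3 lower in KO, with a median log2 fold change of 0.40, beside 31.8% of all genes tested called higher, 31.2% called lower and their median of 0.0069. CDKN1C, DIO3 and KLF14 passed the filter through their KO counts, so that count is no support for a direction of the list, and some listed genes have no settled imprint in human.

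Beside PEG10 on chromosome 7, SGCE, which encodes a sarcoglycan of muscle and brain and starts back to back with PEG10, did not pass (log2 fold change -0.09 ± 0.06, edgeR adjusted p = 0.189). It had 47.4, 47.8, 50.3 and 47.3 CPM in KO and 55.1, 46.8, 47.5 and 53.8 CPM in control libraries. PPP1R9A, a neuronal scaffold of protein phosphatase 1, fell by 0.23 ± 0.06 (adjusted p = 0.00380) and the protease inhibitor TFPI2 rose by 1.26 ± 0.22 (adjusted p = 5.07e-05, edgeR), so the genes around PEG10 did not move as 1 block. Exons of PEG10 share 3.27% of their bases with SGCE on the other strand.

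In the domain of MEST, the coatomer subunit COPG2 fell by 0.17 ± 0.05 (edgeR adjusted p = 0.00853) and the transcription factor KLF14 rose by 1.18 ± 0.45 (adjusted p = 0.0283). COPG2 shares 4.76% of the exonic bases of MEST on the other strand. The call of KLF14, which had 45 counts in KO and 13 in control libraries, was lost with DESeq2 (adjusted p = 0.105) and without 3 single libraries, KO sgRNA2 replicate 1 and either control sgRNA2 library. The calls of COPG2 and PPP1R9A were lost with thinned counts (adjusted p = 0.143 and 0.103) and without control sgRNA1 replicate 1 (0.0912 and 0.0542). CPA4 had 18 counts in KO and 6 in control, and MESTIT1 1 and 2.

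On chromosome 11, in the domain next to IGF2 and H19, the maternally expressed CDK inhibitor CDKN1C (p57) had 30, 23, 35 and 25 counts in KO and 2, 1, 2 and 1 counts in control libraries. Its log2 fold change was 3.55 ± 0.40 (edgeR adjusted p = 1.35e-07), and the CPM ratio was 9.30 (3.01 to 46.5) with sgRNA1 and 15.7 (5.10 to 78.0) with sgRNA2. KCNQ1OT1, the long non-coding RNA whose paternal transcription silences this domain, rose by 0.83 ± 0.13 (adjusted p = 1.28e-05), to a mean of 9.47 ± 0.657 CPM in KO against 5.61 ± 1.16 CPM in control libraries (SD, n = 4, edgeR). The potassium channel gene KCNQ1, in whose intron KCNQ1OT1 is transcribed on the other strand, fell by 1.00 ± 0.26 on the log2 scale (edgeR adjusted p = 0.00235). The strand setting of the counting is not known, so reads of unspliced KCNQ1 and of KCNQ1OT1 cannot be told apart here. The call of KCNQ1OT1 was lost with thinned counts (0.49, edgeR adjusted p = 0.0640). IGF2-AS had 2 counts in KO and 0 in control libraries, and INS and PHLDA2 had 0 in all.

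In the domain of DLK1 and MEG3, DIO3, the deiodinase that inactivates thyroid hormone, had 16, 11, 23 and 12 counts in KO and 0, 0, 7 and 0 counts in control libraries. The log2 fold change was 2.53 ± 0.59 (edgeR adjusted p = 0.000831), with all control counts in control sgRNA2 replicate 1. Without that library it was fitted at 6.66, a value that depends on the prior count since no control count is left. RTL1, MEG8, MEG9 and DIO3OS had 3, 2, 1 and 1 counts in KO and 0 in control libraries, under or at the limit of 3 counts. BLCAP, in whose intron NNAT lies, had a log2 fold change of -0.04 ± 0.07 (adjusted p = 0.654, edgeR), and DDC beside GRB10 had 13 counts in KO and 16 in control libraries.

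**Figure D4:**
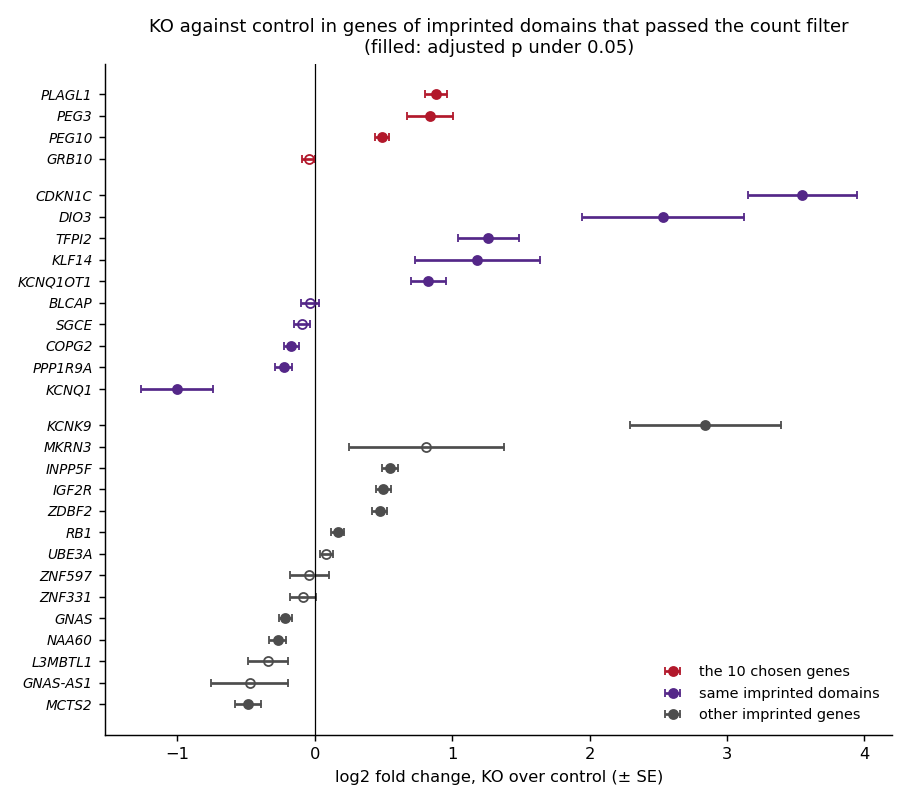
Log2 fold change of KO over control ± SE (x axis) for the genes that passed the filter (y axis), among the 10 chosen genes, the other genes of their domains and further imprinted genes. Filled points are called at an adjusted p under 0.05, and the domain genes run from -1.0 for KCNQ1 to 3.55 for CDKN1C.

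Of 23 listed imprinted genes of other domains, 21 were in the tables and 14 passed the filter. Of the 14, 5 were called higher and 3 lower in KO, with a median log2 fold change of 0.02, beside 31.8% higher and 31.2% lower of all genes tested. The lipid phosphatase INPP5F rose by 0.55 ± 0.06 (edgeR adjusted p = 6.25e-08), the IGF2-clearing receptor IGF2R, imprinted in mouse, by 0.50 ± 0.05 (adjusted p = 1.20e-07) and the paternally expressed ZDBF2 by 0.47 ± 0.06 (adjusted p = 2.70e-07). The potassium channel gene KCNK9, which passed the filter through its KO counts (48, against 4 in control libraries), rose by 2.84 ± 0.55 (edgeR adjusted p = 0.000130). MCTS2, a retrogene whose reads may be shared with its parent gene MCTS1, fell by 0.49 ± 0.09 (adjusted p = 0.000130) and GNAS, the stimulatory G protein alpha subunit, fell by 0.22 ± 0.05 (edgeR adjusted p = 0.000617).

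Genes of the insulin-like growth factor pathway, in which IGF2, GRB10 and IGF2R act, all had a count, and 21 of 25 passed the filter. Of the 21, 7 were called higher and 8 lower in KO, with a median log2 fold change of -0.06, beside 31.8% higher and 31.2% lower of all genes tested. The binding proteins IGFBP3 (92 counts in KO, 9 in control) and IGFBP4 (60 and 17) and the protease PAPPA (75 and 21), among the 7, passed the filter through their KO counts and were named here for that reason. The receptor adaptor IRS2 rose by 1.39 ± 0.05 (edgeR adjusted p = 1.62e-15), to 859.5 ± 40.0 CPM in KO against 327.4 ± 4.53 CPM in control libraries (SD, n = 4). PIK3R1, the regulatory subunit of PI 3-kinase, rose by 1.00 ± 0.06 (adjusted p = 1.09e-11) and the binding protein IGFBP5 fell by 0.91 ± 0.05 (edgeR adjusted p = 4.82e-12). LIN28B, which blocks let-7 maturation, fell by 0.82 ± 0.05, and the IGF2 mRNA-binding proteins IGF2BP1 and IGF2BP3 fell by 0.42 ± 0.04 and 0.45 ± 0.04 (adjusted p = 1.15e-11, 2.02e-08 and 2.05e-08, edgeR). The receptor IGF1R had -0.06 ± 0.05 (adjusted p = 0.220) and INSR -0.05 ± 0.06 (adjusted p = 0.468, edgeR).

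Of 22 genes that set, keep or erase imprints, 17 had a count and 14 passed the filter. Of the 14, 5 were called higher and 6 lower in KO, with a median log2 fold change of 0.05, beside 31.8% higher and 31.2% lower of all genes tested. TET1, which oxidises methylated cytosine, fell by 1.02 ± 0.06 (edgeR adjusted p = 1.89e-11) and UHRF1, which brings the maintenance methyltransferase to replicated DNA, fell by 0.62 ± 0.04 (adjusted p = 2.46e-10). The methyltransferase DNMT3B fell by 0.40 ± 0.06 (edgeR adjusted p = 1.01e-05) and the regulator YY1 by 0.32 ± 0.04 (adjusted p = 9.40e-07). ZNF445, a zinc finger protein that protects imprints, rose by 0.35 ± 0.05 (adjusted p = 1.01e-05) and SMCHD1, a chromatin protein of imprinted clusters, by 0.23 ± 0.05 (edgeR adjusted p = 0.000193).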

How the data were processed

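Stranded poly(A) TruSeq mRNA libraries were read as 80 bp pairs, per the labels' protocols. The deposited values are raw counts per gene, 1 table per library, counted with featureCounts on hg38 per the submitters' processing notes. The gene length in each table is per the file headers. Neither the aligner nor the annotation nor the strand setting is given in the sources used here, so reads of overlapping genes or paralogs may have been shared or dropped, and a low count need not mean a missing transcript. Of 28395 entries, 459 without a gene ID (0.0284 to 0.0425% of counts) were left out, and 27744 of 27936 genes got symbols and positions from RefSeq (GRCh38.p14). Exon overlaps came from GENCODE v29.

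Samples were grouped by KO or control label and guide number. filterByExpr (minimum count 10, minimum total 15, 4 groups) kept 14455 genes. KO against control was tested with edgeR 4.0.16 (TMM, quasi-likelihood) with a guide term and 5 residual degrees of freedom, and the other comparisons as contrasts of 4 group means (4 residual degrees of freedom). The biological coefficient of variation was 0.0473, and SE is the log2 fold change over the root of F. CPM are TMM-scaled, and log2 CPM for correlations used a prior count of 2. Single values were tested by exact permutation, two-sided. Intervals and limits cover counting error only, since reads lacking molecular identifiers may be copies of 1 molecule. The alternatives were DESeq2 1.42.0, its size factors in edgeR, no filter, a stricter filter (CPM of 1 in 4 libraries), thinning, a replicate block, no guide term and leaving out each library.

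The 10 genes and all lists were chosen with earlier results of these data known. Named genes were KAT5, the 10 genes, domain genes with a count (values where tested) and the 6 smallest p of each other list. The 5 genes most correlated with PEG3 and the most and least abundant HEK293 markers were also named. Genes of other lists at 0 or near it were named after their values were seen. SLC22A18, SNHG14 and PEG13 were not analysed here. The values of 1 marker gene are not reported here.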

Additional observations from a re-analysis of the deposited data

Results flagged for a closer look

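In 39 genes, each arm of 4 libraries was checked for a single library far from the others, which chance gives in about 1 of 20 groups. Of 78 groups, 6 had one, and these 78 include both groups of NNAT, which had 0 counts throughout and could not show one. That rate does not hold for H19, MEG3 and DIO3, where the other 3 control libraries had no count and any count at all would stand apart. H19 had 0.244 CPM in control sgRNA2 replicate 2, which was 3 counts, and 0 in the other control libraries. MEG3 had 0.163 CPM in the same library and 0 in the other control libraries. DIO3 had 0.483 CPM in control sgRNA2 replicate 1 and 0 in the others. SGCE had 50.3 CPM in KO sgRNA2 replicate 1, against 47.3 to 47.8 CPM in the other KO libraries. UHRF1 had 82.5 CPM in KO sgRNA1 replicate 2 and at least 90.5 CPM in the other KO libraries. MCTS2 had 13.2 CPM in control sgRNA1 replicate 2, the shallowest library, and at least 14.5 CPM in the other control libraries.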

How the results depend on the processing

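PEG10, PLAGL1 and PEG3 were called higher in KO in all 17 settings, at log2 fold changes of 0.44 to 0.54, 0.78 to 0.95 and 0.60 to 1.08. GRB10 was called in none of 17, at -0.08 to 0.01. With sgRNA2, PEG3 was called in 9 of 16 settings (0.08 to 0.56), and the difference of PEG3 between the guides in 1 of 16 (1.01 to 1.52), without a filter. Scaling by library totals alone, an alternative added after seeing the data, changed no call of these 4 genes. The median log2 fold change over all genes lay between -0.016 and 0.041 in every setting.

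Counts of called genes moved by over 1.5 times as follows. Thinning to the smallest library gave 4573 calls with sgRNA2 (7395 otherwise) and 2 between the control lines (4 otherwise). The stricter filter also gave 2 between the control lines. Without a filter there were 11 calls for the guide difference, 86 for the control lines and 11 for the KO lines. The replicate block gave 1 call for the guide difference. Leaving out single libraries gave 0 to 36 calls for the guide difference, 2 to 116 for the control lines and 0 to 13 for the KO lines. The highest counts for the guide difference (36 and 23) and between the control lines (87 and 116) came without control sgRNA1 replicate 1 and 2, where the lone library is assumed to vary like the other groups. The cause of these moves was not tested. Within 1.5 times stayed the counts without single libraries for KO against control (8438 to 9322), with sgRNA1 (4928 to 7026) and with sgRNA2 (5498 to 8188). Same-numbered replicates did not deviate together over all genes tested (6 correlations, -0.053 to 0.028). Counting noise also lowers such correlations, so they cannot settle whether the numbers pair the samples.

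Thinned counts moved the CPM ratio of IGF2 to 7.0 (0.899 to 315). Depth limits MEST, IGF2, H19, MEG3, DLK1 and NNAT, which had 0 to 14 counts per library.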

Other observations

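The genes given here belong to the lists above and were named after their values were seen. In the Prader-Willi domain of chromosome 15, SNRPN had 1 count in KO and 0 in control libraries, NDN 1 and 2, MAGEL2 1 and 0, and SNURF 0 and 0. How reads of overlapping genes were counted is not known, so these low counts need not mean missing transcripts. The ubiquitin ligase UBE3A of the same domain was at 152.4 ± 8.91 CPM in KO and 143.5 ± 6.65 CPM in control libraries (SD, n = 4, edgeR adjusted p = 0.128). NLRP5, a maternal-effect gene of the oocyte, had 21 counts in KO and 0 in control libraries. With the control arm set to its limit of 3 counts the ratio was 4.63, which leaves out the counting error of the KO arm. Among IGF binding proteins, IGFBP3 had 92 counts in KO and 9 in control libraries, a CPM ratio of 6.76 (95% counting interval 3.41 to 15.2).

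Control sgRNA2 replicate 2 held all 3 control counts of H19, both of MEG3 and both of MESTIT1, and 2 of the 4 of DLK1.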
